A study of Arabidopsis thaliana with 32 samples.

Results

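Here the polysome fraction was compared with the monosome fraction of untreated wild-type seedlings of Arabidopsis thaliana (accession Col-0), to describe which transcripts were relatively richer in each. The members were 6 sequenced libraries of the 32 in the study: the polysome and the monosome library of replicates 2, 3 and 4, chosen by group and paired by replicate number without use of any measured value. The study asked how the mitochondrial calcium uniporter MCU affects gene expression and translation, and also sequenced both fractions of MCU overexpressors, of an mcu sextuple mutant, and of wild type treated with antimycin A or with its solvent DMSO. The untreated seedlings were 10 days old, carried no transgene, and were grown in light on upright agar plates of half-strength MS medium with sucrose, with no compound added. They were extracted whole in a buffer holding cycloheximide and chloramphenicol, which stop ribosomes on the message. The extract was separated on a sucrose gradient, and the RNA of the fractions of each class was precipitated and pooled before polyA library preparation with a kit that does not mark the strand.

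A ribosome that has begun a message travels alone on it as a monosome until others load behind it, and messages that carry several ribosomes sediment deeper, as polysomes. How many ribosomes a message holds depends on how often they start, how fast they move and how long the coding sequence is. Very short coding sequences have little room for a further ribosome, and messages whose leader holds upstream start codons can keep ribosomes away from the main coding sequence. RNA that is not translated can still sediment in the monosome part of a gradient, in a particle of similar size. The comparison therefore ranks transcripts by their value in one fraction over the other, relative to other transcripts, and gives neither the number of ribosomes on a message nor the share of a transcript that sat in polysomes nor a rate of translation. Since whole seedlings were used, a message in fewer cells and a message at less RNA per cell cannot be told apart.

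Each library was divided by its sum outside 4 rRNA genes and is given in parts per 1000000 of that sum (ppm). The log2 ratio is that of the polysome over the monosome value, each with 0.5 added, so it understates the change of low genes. It stands with the standard error (SE) of limma over n = 3 pairs, moderated by the variance of genes of similar level. This SE need not match the spread of a gene's own pairs and can understate it. ATMG01270, for example, had ratios of 2.55, 2.38 and 3.85 in replicates 2, 3 and 4 with an SE of 0.18. A gene was called polysome-rich or monosome-rich at a Benjamini-Hochberg adjusted p under 0.05 in limma, fitted to the 18721 genes with at least 1 ppm in at least 3 of the 6 libraries. The labels do not say that replicates were separate cultures, so the p-values measure only the spread between these samples.

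The deposited values summed to between 30.7 and 37.9 in the polysome libraries and between 22.4 and 28.3 in the monosome libraries, in units of 1000000. The rRNA genes took 30.0 to 43.4% and 29.8 to 48.7% of them, respectively, and organelle genes took 0.67 to 1.51% of the rest. The depth in reads is unknown, because the values had been adjusted before deposit. Seedling markers were as labelled: all 5 green shoot markers and all 6 root markers passed 1 ppm, whereas 1 of 3 flower and pollen markers did. The 3 seed markers summed to 29.3 and 48.4 ppm in the polysome and monosome libraries of replicate 2 but to between 5.00 and 5.95 in the other 4 libraries, and the part of this difference in the results was not tested.

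Of the 18721 genes tested, 3378 were polysome-rich (18.0%) and 5784 were monosome-rich (30.9%), and 10285 had an unadjusted p under 0.05. At least a log2 ratio of 1 in size was reached as well by 903 polysome-rich genes (4.82%) and 2439 monosome-rich genes (13.0%). The median ratio of all genes was -0.16 on the log2 scale (-0.29, -0.15 and -0.04 in replicates 2, 3 and 4), so lists are also given relative to it. This offset depends on the divisor: with a median-of-ratios scaling it was 0.00 and the calls split into 4816 polysome-rich and 4674 monosome-rich genes (50.7% polysome-rich among the calls against 36.9%), and with the values as deposited it was 0.37, with 8322 and 2367 calls. The log2 ratios of any 2 replicates correlated across genes at 0.719 to 0.769, where genes are not independent replicates and each library enters only its own ratio.

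The messages for the light-harvesting and photosystem proteins included genes among those with the highest and the lowest ratios. The photosystems of the chloroplast are built of core and peripheral subunits and of antenna proteins, the light-harvesting chlorophyll-binding (LHC) proteins, and their nuclear-encoded parts are made on cytosolic ribosomes and imported. Of 52 genes of this list, 51 were tested, of which 34 were polysome-rich and 11 monosome-rich, with a median log2 ratio of 0.93, beside 18.0%, 30.9% and -0.16 over all genes. The split followed the kind of protein: of 32 genes for photosystem I and II subunits, electron carriers and ATP synthase, 29 were polysome-rich and none monosome-rich, whereas 5 of the 19 LHC genes were polysome-rich and 11 monosome-rich. The genes of this list are given in full because of their values, so the split is a description.

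LHCB1, the most abundant antenna protein of photosystem II, is encoded by near-identical genes, of which 4 were in the table. Their summed value was 1.83, 2.00 and 2.06% of the polysome libraries of replicates 2, 3 and 4, and 10.5, 9.00 and 13.6% of the monosome libraries. The groups lay far apart, with a mean of 1.96% ± 0.118 (SD, n = 3) in polysomes and 11.1% ± 2.35 in monosomes, 5.64-fold apart, and the log2 ratio was -2.48 ± 0.28 (SD, n = 3 pairs). LHCB1.3 (AT1G29930, chromosome 1, 10477885 to 10479114, plus strand) held 9832, 10910.1 and 11359 ppm in polysomes against 59462, 50201 and 77715 in monosomes, a log2 ratio of -2.52 (SE 0.13, adjusted p = 1.8e-21 in limma). LHCB1.1, LHCB1.2 and LHCB1.4 had log2 ratios of -2.55, -2.37 and -2.31. The coding sequences of the 3 copies on chromosome 1 share 95.65 to 96.39% of their 804 bases, and how reads common to such copies were counted is not given in the sources used here, so the sum is firmer than its split. This family enters the divisor of every other gene: with LHCB1 left out of the divisor, a setting chosen after seeing the data, the median of all genes was -0.29 and 2620 and 7118 genes were called.

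LHCB2, which forms mixed antenna trimers with LHCB1, lay on the other side. LHCB2.1 measured 3083, 5023 and 4150.4 ppm in polysomes and 1163, 1472 and 1087 in monosomes, and every polysome library was above every monosome library (log2 ratio 1.70, SE 0.11, adjusted p = 8.9e-18 in limma). LHCB2.2 and LHCB2.3 had log2 ratios of 1.46 and 1.82. LHCB3, the third trimer protein, was monosome-rich, at 4735, 5581 and 5283 against 11573, 12302 and 14077 ppm (-1.28, SE 0.11). All 4 LHCB1 and all 3 LHCB2 genes kept these directions in replicate 1, which did not enter the fit: their log2 ratios there were -2.25 (LHCB1.1), -2.02 (LHCB1.2), -2.28 (LHCB1.3), -2.10 (LHCB1.4), 1.23 (LHCB2.1), 0.98 (LHCB2.2) and 1.49 (LHCB2.3).

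The minor antenna proteins, which sit as monomers between the trimers and the photosystem II core, showed smaller ratios. LHCB4.1, LHCB4.2 and LHCB5 were called monosome-rich at -0.53, -0.45 and -0.34, but their sign turned to 0.04, 0.11 and 0.22 with the values as deposited, and none of the 3 passed the test under median-of-ratios scaling. LHCB5 also lost the call without replicate 2 (-0.36, adjusted p = 0.152 in limma) and without replicate 4 (-0.30, adjusted p = 0.295). LHCB6 did not pass the test (-0.23, adjusted p = 0.066 in limma). It passed without replicate 3 (-0.27, adjusted p = 0.0055 in limma) and with LHCB1 left out of the divisor (-0.37, adjusted p = 0.0037). With the values as deposited its sign turned to 0.34. LHCB4.3, at 5.78, 8.75 and 7.23 against 2.46, 2.71 and 3.0 ppm, was the polysome-rich exception (1.25, SE 0.27). Among the antenna proteins of photosystem I, LHCA1, LHCA2 and LHCA4 were monosome-rich (-0.71, -0.84 and -1.07), LHCA5 was polysome-rich (1.11), and LHCA3 (0.10) and LHCA6 (0.21) did not pass the test. With the values as deposited LHCA1 and LHCA2 were at -0.15 and -0.27 and lost the call.

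**Figure D1:**
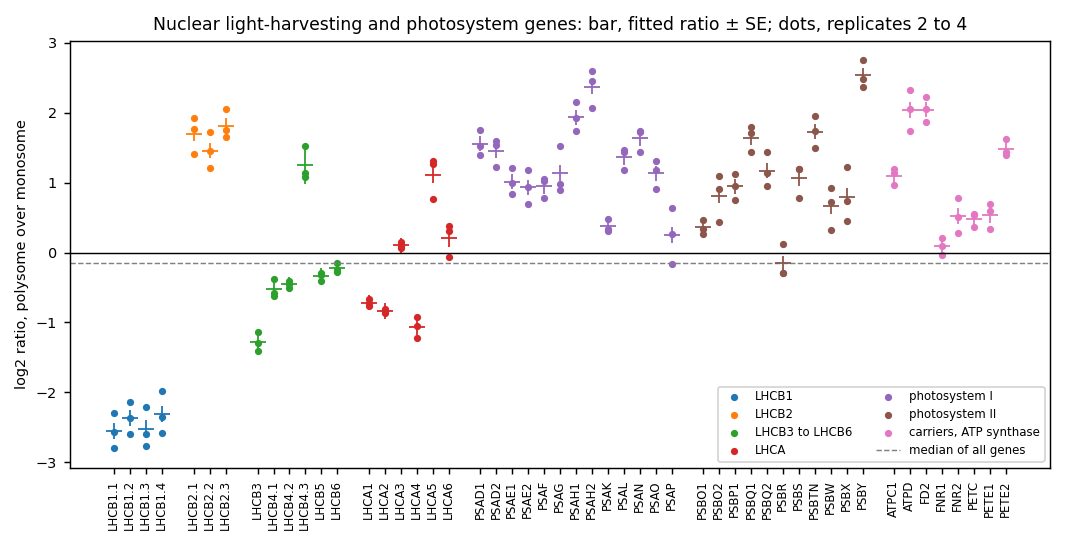
Log2 ratio of the polysome over the monosome value for each light-harvesting and photosystem gene tested, with points for replicates 2, 3 and 4 and genes grouped by kind of protein. The 4 LHCB1 genes have fitted ratios (bars, ± SE) of -2.55 to -2.31, the 3 LHCB2 genes of 1.46 to 1.82, and the subunit genes lie above 0 except PSBR (-0.15).

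Among photosystem I subunits, 12 of 13 genes were polysome-rich and none was monosome-rich, with a median log2 ratio of 1.14. Over all genes these were 18.0%, 30.9% and -0.16. PSAH2, a subunit at the docking side of LHCII (AT1G52230, chromosome 1, 19454798 to 19455668, plus strand), measured 3719, 3703 and 3330.0 ppm in polysomes against 616, 886 and 607 in monosomes, and the libraries of the fractions did not overlap (log2 ratio 2.37, SE 0.11, adjusted p = 6.7e-23 in limma). Its paralogue PSAH1 had 1.94. PSAN, a subunit on the lumenal side, had 1.64, and the ferredoxin-docking subunits PSAD1, PSAD2, PSAE1 and PSAE2 had 1.56, 1.45, 1.02 and 0.93. PSAP was the member that did not pass (0.25, adjusted p = 0.068 in limma), with 2849.8, 2298 and 2715 against 1827, 2572 and 2265 ppm, so its groups overlapped. It passed without replicate 3 (0.45, adjusted p = 7.7e-07 in limma) and with replicates 1, 2 and 4 of the other table (0.52, adjusted p = 0.00019), and without replicate 2 it was at 0.05. PSAK passed at 0.38 but not without replicate 2 (0.32, adjusted p = 0.119 in limma) or without replicate 4 (0.40, adjusted p = 0.071).

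Photosystem II subunits behaved alike in count, with 10 of 11 polysome-rich, none monosome-rich and a median of 0.95. The values over all genes were 18.0%, 30.9% and -0.16. PSBY, a small membrane protein of photosystem II (AT1G67740, chromosome 1, 25394031 to 25395249, minus strand), measured 3607, 4757 and 3977 ppm in polysomes and 644, 923 and 589 in monosomes (2.53, SE 0.11, adjusted p = 2.9e-24 in limma). The oxygen-evolving complex proteins had 0.36 (PSBO1), 0.82 (PSBO2), 0.95 (PSBP1), 1.65 (PSBQ1) and 1.17 (PSBQ2), and PSBS, which acts in the dissipation of excess light, had 1.06. PSBO1 lost the call without replicate 2 (0.41, adjusted p = 0.073 in limma) and without replicate 4 (0.37, adjusted p = 0.136). PSBR did not pass the test at -0.15, and its sign turned under both median-of-ratios scaling and the values as deposited.

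Electron carriers and ATP synthase subunits gave 7 polysome-rich genes of 8, beside 18.0% of all genes. FD2, the main leaf ferredoxin, measured 6358, 5907 and 5142 against 1361, 1621 and 1239 ppm (2.05, SE 0.11). The plastocyanin gene PETE2 had 1.48 and PETE1 0.54, the ATP synthase genes ATPD and ATPC1 had 2.04 and 1.1, and PETC of the cytochrome b6f complex had 0.48. Of the ferredoxin-NADP reductases, FNR2 was polysome-rich (0.52) and FNR1 did not pass (0.09).

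The Calvin cycle genes were split as well, with 9 of 18 polysome-rich (50.0%), 7 monosome-rich (38.9%) and a median of 0.19, beside 18.0%, 30.9% and -0.16 over all genes. RBCS1A, the Rubisco small subunit gene with the largest mean value in the 6 libraries, measured 60835, 50276 and 49068 ppm in polysomes and 33258, 39819 and 34068 in monosomes (0.58, SE 0.13, adjusted p = 0.00024 in limma). All 3 polysome libraries were above all 3 monosome libraries, but the call was lost without replicate 2 (0.43, adjusted p = 0.20 in limma), without replicate 4 (0.60, adjusted p = 0.13) and under median-of-ratios scaling (0.75, adjusted p = 0.112). RBCS3B, a further small subunit gene of similar sequence, had 0.81. GAPA1, a subunit of the plastid glyceraldehyde 3-phosphate dehydrogenase, was the lowest of the list at 887, 1028 and 959.7 against 1812, 1965 and 2113 ppm (-1.03, SE 0.10), and RPI3, a ribose 5-phosphate isomerase, the highest at 54.9, 108 and 103 against 34.8, 36.6 and 35.2 (1.25, SE 0.15).

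Of 17 chlorophyll synthesis genes, 9 were polysome-rich (52.9%, beside 18.0% of all genes) and 2 monosome-rich (11.8%, beside 30.9%), with a median of 0.30. HEMA1, the glutamyl-tRNA reductase that starts the pathway, was the lowest, at 133, 146 and 130.3 against 359.7, 346 and 435 ppm (-1.47, SE 0.11). PORC, a light-dependent protochlorophyllide oxidoreductase, was the highest (1.14, SE 0.13), and CRD1, a subunit of the cyclase that closes the fifth ring, had 0.43, a call that missed the threshold without replicate 2 (0.39, adjusted p = 0.051 in limma).

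The messages measured for ribosomal protein eL41 (RPL41) were monosome-rich. RPL41 is among the shortest proteins known, and its coding sequence is shown because its whole length is close to the stretch of message that a few ribosomes cover. The 4 RPL41 genes tested, of 5 listed, each have a coding sequence of 78 bases, 25 codons before the stop (TAIR10.1 build, from RefSeq; the coordinates are those of the gene, capitals mark the start and the stop codon).
RPL41A, AT1G56045, chr1:20962570-20963546, plus strand: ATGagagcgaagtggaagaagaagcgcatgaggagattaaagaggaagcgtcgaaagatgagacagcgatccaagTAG
RPL41C, AT3G08520, chr3:2586001-2586343, plus strand: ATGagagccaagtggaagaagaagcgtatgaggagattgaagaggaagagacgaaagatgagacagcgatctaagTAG
RPL41D, AT3G11120, chr3:3481020-3481485, plus strand: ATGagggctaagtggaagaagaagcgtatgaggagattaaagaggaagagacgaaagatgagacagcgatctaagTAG
RPL41E, AT3G56020, chr3:20790502-20791163, minus strand: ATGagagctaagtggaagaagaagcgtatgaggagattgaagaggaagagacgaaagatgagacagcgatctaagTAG

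The copies share 72 to 77 of these 78 bases, so reads within the coding sequence could fit more than 1 copy. All 4 genes were monosome-rich, with a median log2 ratio of -0.995, beside 30.9% and -0.16 over all genes. RPL41E measured 40.8, 38.0 and 43.9 ppm in polysomes against 102, 124 and 129 in monosomes (-1.52, SE 0.13, adjusted p = 2.7e-13 in limma), and RPL41A 80.0, 85.2 and 83.2 against 184, 242 and 193 (-1.30, SE 0.12). RPL41C was at -0.69 and RPL41D at -0.50. With the values as deposited RPL41C was at -0.13 and RPL41D at 0.06, and RPL41D lost the call without replicate 3 (-0.32, adjusted p = 0.135 in limma). The ratios of RPL41A, RPL41C, RPL41D and RPL41E in replicate 1 were -1.33, -0.57, -0.81 and -1.61.

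The other cytosolic ribosomal proteins leaned to polysomes: of 123 genes tested, 55 were polysome-rich (44.7%, beside 18.0% of all genes) and 27 monosome-rich (22.0%, beside 30.9%), with a median of 0.20, or 0.36 above that of all genes. RPS25D, of the small subunit, was the highest at 128, 99.3 and 99.6 against 39.6, 37.3 and 29.5 ppm (1.60, SE 0.13), and RPS15AF, also of the small subunit, the lowest at 134, 122 and 129 against 312, 294 and 349 (-1.31, SE 0.11). RPL18AB, with the highest mean of the list, did not pass (0.14). Nuclear genes for plastid ribosomal proteins did so too, with 24 of 35 polysome-rich (68.6%), 4 monosome-rich (11.4%) and a median of 0.60. L12-A, of the ribosomal stalk, measured 579.7, 745 and 652 against 137, 176 and 131 ppm (2.16, SE 0.11), and PSRP4, a plastid-specific ribosomal protein, had 1.09. L4 was the lowest at -0.62, and lost the call with the values as deposited (-0.05).

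Translation factors had no common side, with 10 of 36 polysome-rich (27.8%, beside 18.0% of all genes), 11 monosome-rich (30.6%, beside 30.9%) and a median of -0.06. PAB2, a poly(A)-binding protein, was the lowest, at 179.6, 212 and 192 against 679, 578 and 681 ppm (-1.73, SE 0.11, adjusted p = 1.1e-17 in limma). EIF5A-2, an elongation and termination factor, was the highest at 1078, 1067 and 1042 against 335, 425 and 302 (1.60, SE 0.11), and eEF1A-4, an elongation factor, had 0.64.

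Chaperones of the cytosol and the endoplasmic reticulum (ER) had the lowest median of the nuclear protein-coding lists other than LHCB1, -1.13, with 8 of 14 genes monosome-rich (57.1%, beside 30.9% of all genes), all of them beyond a log2 ratio of -1, and 3 polysome-rich (21.4%, beside 18.0%). HSC70-1, a constitutive cytosolic Hsp70, measured 328, 415 and 345 ppm in polysomes and 1119, 983 and 1298 in monosomes (-1.64, SE 0.11, adjusted p = 9.2e-17 in limma). CRT1b, a calreticulin of the ER lumen, was the lowest at 15.1, 15.3 and 14.7 against 66.5, 33.4 and 59.2 (-1.72, SE 0.17). HSC70-3, a paralogue of HSC70-1, was polysome-rich at 43.7, 74.0 and 44.6 against 25.2, 33.5 and 23.1 (0.95, SE 0.15). The median of this list was -1.20 and -1.18 in replicates 2 and 4 and -0.49 in replicate 3.

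Histones leaned to polysomes, with 28 of 42 polysome-rich (66.7%, beside 18.0% of all genes), 3 monosome-rich (7.14%, beside 30.9%) and a median of 0.80. HTA6, a histone H2A, measured 135, 132 and 136 against 41.2, 38.3 and 28.7 ppm (1.90, SE 0.13), and AT4G40030, a histone H3 gene with the highest mean of the list, 719.7, 634 and 591 against 221, 255 and 199.1 (1.53, SE 0.11). HTR11, a further H3 gene, had the lowest ratio (-1.49) at 0.26 to 0.56 against 1.39 to 3.40 ppm. It passed the filter on low values through the monosome libraries alone, so its ratio had to be low, and it missed the threshold without replicate 2 (-1.05, adjusted p = 0.063 in limma). Histone messages of a plant are polyadenylated, so they are captured by a polyA library.

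Cytoskeletal and cell wall genes gave 11 polysome-rich (37.9%) and 4 monosome-rich (13.8%) of 29 tubulins, actins and cellulose synthases, beside 18.0% and 30.9% of all genes. TUB1, a beta-tubulin, was the highest at 16.1, 26.1 and 24.3 against 5.35, 7.88 and 3.28 ppm (1.96, SE 0.23). The vegetative actins ACT8 and ACT2 lay on the other side, ACT8 at 254, 265 and 256 against 698, 625 and 693 (-1.38, SE 0.11) and ACT2 at -0.72, which lost the call with the values as deposited (-0.15). Nuclear genes of oxidative phosphorylation gave 26 polysome-rich (35.1%) and 12 monosome-rich (16.2%) of 74, with a median of 0.17. FRO1, a complex I subunit, had 1.31, AT5G47030, an ATP synthase subunit, 0.78, and AT2G42310, a complex I subunit, -0.80.

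Families of regulators had medians from -0.54 to 0.06, and part of each family other than the clock genes did not reach the filter. Their counts stand beside 18.0% polysome-rich and 30.9% monosome-rich over all genes. ERF and DREB factors, which bind ethylene and dehydration response elements, gave 1 polysome-rich and 9 monosome-rich of 20 tested (23 listed), with a median of -0.54. EBP, an ERF factor, measured 55.1, 53.3 and 63.5 against 176, 148 and 229.7 ppm (-1.66, SE 0.12), and DEAR3, a DREB factor, 3.61, 2.69 and 3.09 against 15.5, 5.82 and 18.4 (-1.78, SE 0.26). The polysome-rich member, ERF38, was at 1.69 to 2.67 ppm in polysomes and lost the call without replicate 2 (0.67, adjusted p = 0.188 in limma). WRKY factors gave 5 polysome-rich and 7 monosome-rich of 50 tested (60 listed), NAC factors 6 and 9 of 50 (65 listed), and MYB factors 5 and 15 of 77 (97 listed). The clock genes gave 4 and 9 of 21, from LNK1 (1.43), a coactivator of the clock, to RVE4 (-1.09), a MYB-like clock factor. Pentatricopeptide repeat proteins, which process organelle RNA, gave 12 and 28 of 179 (261 listed), or 6.70% and 15.6%.

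Families of small secreted proteins and of auxin response are given beside the 18.0% polysome-rich and 30.9% monosome-rich of all genes. Defensins, RALF, CLE and GASA peptides gave 7 polysome-rich and 16 monosome-rich of 46 tested (70 listed), with a median of -0.56. RALF23, a peptide that alkalinizes the apoplast and is perceived by the receptor FERONIA, was the lowest at 53.1, 52.1 and 64.3 against 180.3, 168 and 241 ppm (-1.78, SE 0.12), whereas the defensin-like AT3G05730 had 1.04. Arabinogalactan proteins, glycoproteins of the cell surface, gave 7 and 16 of 37 (47 listed), among them AGP22 (-1.77), AGP2 (0.97) and AGP15 (0.71). Lipid transfer proteins gave 8 and 14 of 47 (62 listed), shares close to those over all genes. SAUR proteins, encoded by auxin-induced genes, gave 13 and 7 of 56 (68 listed), from AT1G72430 (1.44) to AT4G34750 (-1.42).

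**Figure D2:**
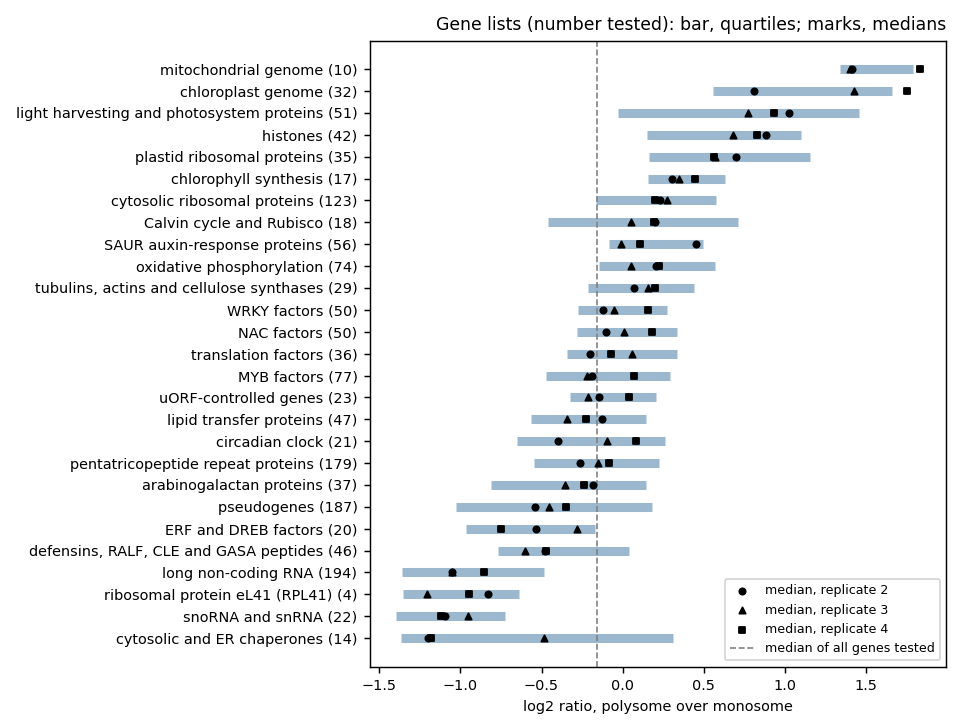
Log2 ratio of the polysome over the monosome value for each gene list, with the number of genes tested in parentheses. Bars span the quartiles of the fitted ratio, marks are the medians of replicates 2, 3 and 4, and the dashed line is the median of all 18721 genes (-0.16); organelle-encoded, photosystem, histone and plastid ribosomal protein genes lie to its right, and chaperones, small RNA genes, RPL41 and long non-coding RNA genes to its left.

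The single genes with the highest ratios were named by a fixed rule (called, mean of at least 10 ppm in the richer fraction, no overlap between the libraries of the fractions). The first was AT2G07698 (chromosome 2, 3361463 to 3364127, plus strand), annotated as an alpha subunit of the F1 ATPase, at 134, 165 and 110.3 ppm in polysomes and 15.3, 15.4 and 5.90 in monosomes (3.53, SE 0.16, adjusted p = 6.7e-23 in limma). The locus lies in the part of chromosome 2 that holds a copy of the mitochondrial genome, so reads from it and from the mitochondrial gene cannot be told apart here. Next came SDG2, a histone H3 lysine 4 methyltransferase (2.81), NUA, the nuclear pore anchor (2.69), and the uncharacterized AT4G05631 (2.55), followed by PSBY and PSAH2. SDG2 measured 18.4, 32.3 and 19.6 against 5.78, 3.91 and 0.81 ppm, and NUA 15.3, 24.4 and 18.6 against 3.76, 3.98 and 0.97, so the spread was wide in monosomes. The rule ended with AT5G07740, annotated as actin binding (2.3), and UPL1, an E3 ubiquitin ligase (2.27). SDG2, NUA, AT5G07740 and UPL1 encode proteins of 2335, 2115, 1683 and 3681 residues, and AT2G07698, AT4G05631, PSBY and PSAH2 proteins of 777, 293, 189 and 145.

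At the other end, AT5G49440 (chromosome 5, 20048239 to 20049776, plus strand), an uncharacterized gene, measured 72.7, 62.9 and 67.5 ppm in polysomes and 539, 461 and 625 in monosomes (-2.98, SE 0.11, adjusted p = 1.4e-25 in limma). Its annotated leader holds 9 upstream ATG triplets in 679 bases. AT4G32240, uncharacterized and with 5 upstream ATG triplets in 223 bases, measured 10.1, 8.77 and 13.2 against 78.8, 64.4 and 88.6 (-2.80, SE 0.16). LARP6a, an RNA-binding protein of the La-related family (-2.50), AT3G60300, an RWD domain protein (-2.45), and the uncharacterized AT1G68945 (-2.45) and AT4G04925 (-2.44) completed the rule beside LHCB1.1 and LHCB1.3. The annotated leaders of AT1G68945, AT3G60300 and LHCB1.3 hold 6, 1 and 1 upstream ATG triplets, and those of LARP6a, AT4G04925 and LHCB1.1 hold none. AT1G68945, AT4G04925 and AT4G32240 encode proteins of 48, 76 and 83 residues, AT5G49440 a protein of 181, LHCB1.1 and LHCB1.3 proteins of 267, and AT3G60300 and LARP6a proteins of 383 and 422.

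**Figure D3:**
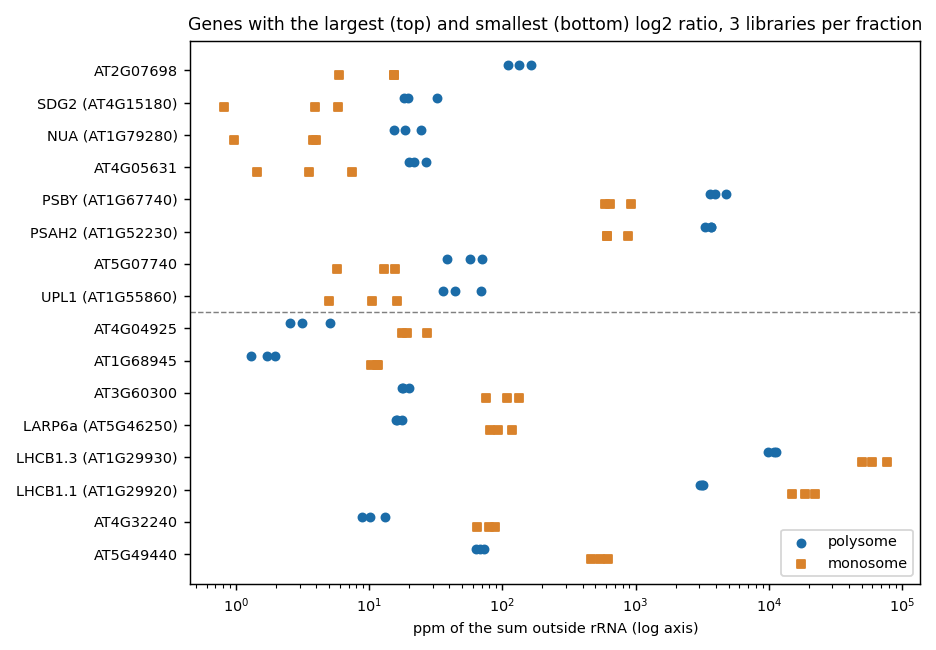
Values in ppm of the sum outside rRNA, on a log axis, of the genes named by rule, in the polysome and monosome libraries of replicates 2, 3 and 4. The rule required that the 3 libraries of a fraction lie apart from the 3 of the other. For AT5G49440 the values are 62.9 to 72.7 against 461 to 625.

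All 8 nuclear genes with the largest share of the libraries encode photosynthesis proteins: RBCS1A, LHCB1.3, RBCS3B, PSAL, LHCB1.1, LHCB5, LHCB1.4 and LHCB3, in this order of mean value in ppm, which is not per length. Of the 87 genes with a mean of at least 1000 ppm, 52 were polysome-rich and 25 monosome-rich, beside 18.0% and 30.9% of all genes. PSAL, a photosystem I subunit, measured 16341, 18002 and 16484 against 6025, 7929.7 and 5965 ppm (1.36, SE 0.11).

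Ratios differed between classes of protein length, most at the ends, and had no order over the whole range (Spearman's rho across genes 0.0051). Of the 99 nuclear genes for proteins under 60 residues, 10.1% were polysome-rich and 54.5% monosome-rich, with a median of -0.59, beside 18.0% and 30.9% of all genes. For proteins of 60 to under 100 residues, 32.5% of 567 genes were polysome-rich and 24.7% monosome-rich. The share of polysome-rich genes then fell from 29.1% at 100 to under 200 residues to 17.2% at 200 to under 400 and 9.78% at 400 to under 800, and the medians from 0.00 through -0.20 to -0.26. At 800 to under 1200 residues 21.2% were polysome-rich and 13.3% monosome-rich. Among 492 genes for proteins of at least 1200 residues, 64.4% were polysome-rich and 2.64% monosome-rich, with a median of 0.69.

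In the fitted ratio, genes for long proteins were above the median of all genes in each of 3 classes of level. For proteins of at least 800 residues the median relative to all genes was 0.22, 0.39 and 0.48 for genes of low, middle and high mean value (classes of equal size). Over all levels it was 0.23, 0.45 and 0.48 in replicates 2, 3 and 4 and 0.11 in replicate 1, so its size varied between pairs. For those of low mean value it was 0.03, 0.31 and 0.29 in replicates 2, 3 and 4 and -0.07 in replicate 1. For proteins of at least 1200 residues it was 0.60, 0.94 and 1.04 in replicates 2, 3 and 4 and 0.42 in replicate 1. At 100 to under 200 residues the median relative to all genes was 0.38 for genes of high mean value but 0.00 and -0.02 for those of low and middle value. Genes with 11 or more coding exons were 23.2% polysome-rich and 19.6% monosome-rich, beside 18.0% and 30.9% of all genes. Their median relative to all genes was 0.07, 0.22 and 0.31 in replicates 2, 3 and 4 and 0.05 in replicate 1. The part of protein length in these shares was not tested.

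**Figure D4:**
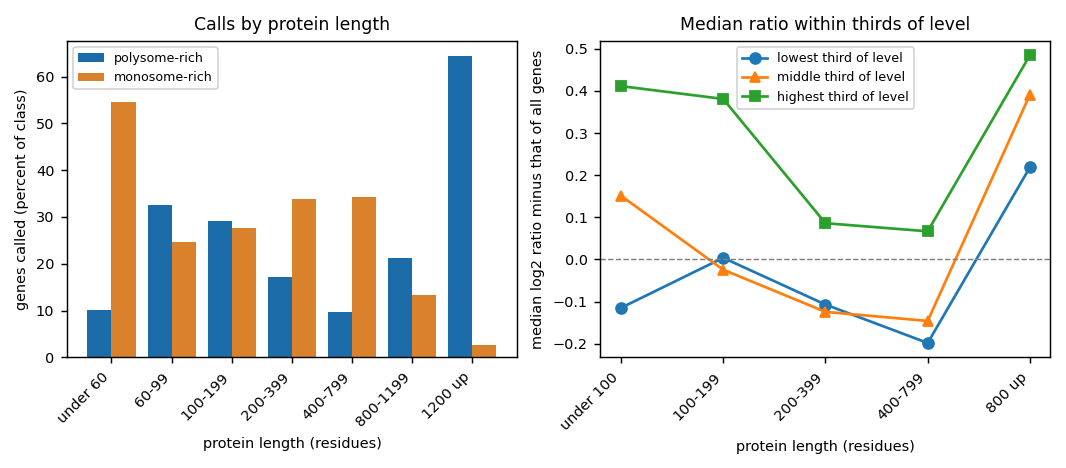
Left, percent of nuclear protein-coding genes called polysome-rich or monosome-rich by length of the encoded protein in residues, from 10.1% and 54.5% under 60 residues to 64.4% and 2.64% from 1200 residues. Right, median log2 ratio minus that of all genes by length class, with a line for each class of mean value, which for proteins of at least 800 residues is 0.22, 0.39 and 0.48 from low to high.

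Upstream ATG triplets in the annotated leader went with a lower ratio. Genes with none were 20.5% polysome-rich and 26.2% monosome-rich, and those with at least 4 were 14.2% and 37.8%, with 19.4% and 29.0% for a single triplet and 16.4% and 32.8% for 2 or 3. Longer leaders hold more triplets, and the part of leader length in these shares was not tested. Among leaders of 100 to under 200 bases, which still vary in length, the shares ran from 21.8% and 25.2% with none (2752 genes) to 11.2% and 37.9% with at least 4 (206 genes). Their medians were -0.03 with none and -0.32 with at least 4. Over leaders of all lengths the median was -0.07 with none and -0.29 with at least 4, and Spearman's rho across genes was -0.11.

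Genes known for regulation by an upstream reading frame in their leader did not stand out as a list, with 4 of 23 polysome-rich (17.4%, beside 18.0% of all genes), 6 monosome-rich (26.1%, beside 30.9%) and a median of -0.15, beside -0.16. VTC5, an enzyme of ascorbate synthesis, was the lowest at 19.9, 23.9 and 19.4 against 44.5, 52.2 and 56.5 ppm (-1.26, SE 0.16). ARF5, an auxin response factor, was the highest at 11.3, 14.8 and 13.2 against 9.62, 6.15 and 4.97 (0.91, SE 0.23). SAMDC1, an S-adenosylmethionine decarboxylase of polyamine synthesis, was called at 0.26 but not without replicate 2 (0.25, adjusted p = 0.193 in limma) or without replicate 4 (0.25, adjusted p = 0.229).

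Among the non-coding RNA genes that passed the filter, more were monosome-rich than polysome-rich. Of 745 long non-coding RNA genes listed, 194 passed the filter. Of these, 117 were monosome-rich (60.3%, beside 30.9% of all genes) and 6 polysome-rich (3.09%, beside 18.0%), with a median of -0.90. A gene that passed only through the fraction where it is high had to differ, so these counts describe the genes measured and not the class. Of the 194, 76 overlap a coding gene on the other strand, and since the kit does not mark the strand their reads cannot be told from those of that gene: 35 of them were monosome-rich and 3 polysome-rich, against 82 and 3 of the 116 with no overlap. AT2G15128, which passed through the monosome libraries alone, was the lowest of the list, at 0, 0.21 and 0.36 ppm in polysomes and 5.71, 4.63 and 5.73 in monosomes (-3.12, SE 0.35). AT3G06355, with the highest mean, was the opposite case at 754, 1347 and 801 against 513, 621 and 228 (1.16, SE 0.13), and its locus lies between a pair of the excluded rRNA genes. Its ratio in replicate 1 was -0.03.

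For small RNA genes and pseudogenes the same limit holds, since those that passed through 1 fraction had to differ, and the counts describe the genes measured. The part of the small RNA that a polyA library captured was not measured. Of 136 small nucleolar and small nuclear RNA genes, 22 passed the filter. Of these, 16 were monosome-rich (72.7%, beside 30.9% of all genes) and none polysome-rich (beside 18.0%), with a median of -1.12. AT4G39366, a small nucleolar RNA gene, measured 1.92, 1.19 and 1.82 against 5.86, 7.35 and 7.41 ppm (-1.79, SE 0.30). Of 537 pseudogenes, 187 passed. Of these, 74 were monosome-rich (39.6%, beside 30.9% of all genes) and 24 polysome-rich (12.8%, beside 18.0%). SADHU1-1, an element of a family of retroposons (AT2G10410, chromosome 2, 4005995 to 4007044, minus strand), measured 15.0, 13.6 and 19.0 ppm in polysomes and 209, 188 and 327 in monosomes, 15.2-fold apart (-3.85, SE 0.14, adjusted p = 5.2e-27 in limma). AT1G20390, annotated as a pseudogene, was at the other end at 12.9, 25.5 and 17.4 against 0.072, 0.40 and 0.26 (4.65, SE 0.30), and it passed the filter through the polysome libraries alone, so it had to differ and the size of its ratio is not firm. The single tRNA gene that passed, AT1G53410 of 25 listed, was at -0.49 and did not pass the test.

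Among the organelle genes that passed the filter, more were polysome-rich than monosome-rich, and the same limit applies to the chloroplast genes. Of 91 chloroplast genes 32 passed the filter. Of these, 23 were polysome-rich (71.9%, beside 18.0% of all genes) and 6 monosome-rich (18.75%, beside 30.9%), with a median of 1.44, beside -0.16. ATCG00190 measured 247, 289 and 209 ppm in polysomes against 87.0, 58.9 and 26.7 in monosomes (2.24, SE 0.15), and ATCG00110 146, 175 and 124 against 437, 277 and 276 (-1.13, SE 0.12). The median of the list was 0.81, 1.43 and 1.75 in replicates 2, 3 and 4. All 10 mitochondrial genes with deposited values passed the filter, and these need not be all genes of that genome. Of the 10, 9 were polysome-rich (90%, beside 18.0% of all genes) and 1 monosome-rich (10%, beside 30.9%), with a median of 1.58. ATMG01270 was at 106, 125 and 65.4 against 17.6, 23.6 and 4.05 (2.93, SE 0.18), and ATMG00665 at 62.1, 58.8 and 37.4 against 146, 184 and 65.9 (-1.22, SE 0.14). Organelle ribosomes and membrane fragments can sediment at various depths, so the class of ribosome that held these RNAs was not measured. The libraries were polyA libraries, and the part of the organelle RNA that they captured was not measured either. These ratios therefore describe the captured RNA only.

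Replicate 1 of untreated wild type, deposited in another table and left out of the fit, gave a further pair. Its ratio had the same sign for 93.3% of the 3378 polysome-rich and 97.3% of the 5784 monosome-rich genes, beside 81.6% of all 18721. Among genes called with a log2 ratio of at least 1 in size, the shares were 96.7% of 903 and 99.0% of 2439.

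The other group of wild type without an inhibitor was treated with DMSO. Those seedlings, also Col-0 and 10 days old, had been moved from plates to liquid medium, shaken overnight in the dark and then given DMSO for some hours, so solvent, liquid culture, darkness and handling cannot be told apart. Their table had been scaled separately by the authors, so ratios were taken within each table and then compared, 3 pairs against 3. Of 18235 genes tested, the ratio was higher in untreated seedlings for 635 (3.48%) and lower for 195 (1.07%), and 3754 had an unadjusted p under 0.05. The median difference over all genes was 0.12 on the log2 scale, and with median-of-ratios scaling the counts were 458 and 568. These counts moved with single libraries: leaving out each replicate in turn gave from 119 (without DMSO replicate 2) to 1598 (without untreated replicate 2) higher and from 27 (without DMSO replicate 1) to 284 (without untreated replicate 2) lower.

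UGT73B1, a UDP-glucosyltransferase, differed most. Its log2 ratios were 1.37, 2.22 and 1.64 in untreated replicates 2, 3 and 4 and -1.39, -1.41 and -0.76 in DMSO replicates 1, 2 and 3, a difference of 2.93 (SE 0.30, adjusted p = 8.7e-06 in limma). AT1G06830, a glutaredoxin family gene, was at 2.08, 1.66 and 1.74 against 0.36, 0.61 and -0.42. With ratios below 0 in every pair of both groups, but less so in untreated seedlings, were AT7SL-1 (AT4G02970, named for the RNA of the signal recognition particle and listed as protein-coding), UNE15, a late embryogenesis abundant protein, and AT4G00040, of the chalcone synthase family, with differences of 1.70, 1.66 and 1.62. UNE15, monosome-rich in untreated seedlings (-0.81), lost that call without replicate 2 (-0.45, adjusted p = 0.175 in limma) and with the values as deposited (-0.28). The difference of AT7SL-1 missed the threshold without DMSO replicate 1 (1.41, adjusted p = 0.052 in limma). In untreated replicate 1, which did not enter the test, AT7SL-1, UNE15 and AT4G00040 were at -1.98, -1.58 and -2.10. Their mean ratios in DMSO-treated seedlings were -3.70, -2.47 and -2.79. UGT73B1 and AT1G06830 were at 0.91 and 2.00 in replicate 1.

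In the other direction, ARF1 (AT1G23490, an ADP-ribosylation factor of vesicle traffic) was at -0.59, -0.57 and -0.58 in untreated and 0.34, 0.41 and 0.57 in DMSO-treated seedlings, a difference of -1.02 (SE 0.14, adjusted p = 0.00021 in limma). AT1G22065, MBD1, AT4G26600 and CDEF1 had differences of -1.24, -0.97, -0.95 and -0.95, and each lost the call in at least 4 of the alternatives that left out a replicate. In untreated replicate 1, which did not enter the test, these genes were at 1.26, 0.43, -1.14 and -0.91. Their mean ratios in DMSO-treated seedlings were 2.16, 0.57, 0.03 and -0.64. MBD1 in replicate 1 thus had the sign of the DMSO pairs and not that of untreated replicates 2, 3 and 4. ARF1 was at -0.35 in replicate 1. Of the 51 light-harvesting and photosystem genes, 5 had a lower ratio in untreated seedlings, with differences of -0.65 (LHCB3), -0.60 (PSAP), -0.55 (LHCB5), -0.52 (LHCA2) and -0.52 (PSAF), and LHCB2.3 had a higher one (0.78), beside 1.07% lower and 3.48% higher over all genes. The summed LHCB1 ratio was -2.48 ± 0.28 in untreated and -2.06 ± 0.41 (SD, n = 3 pairs each) in DMSO-treated seedlings, and no LHCB1 gene passed the test of the difference.

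**Figure D5:**
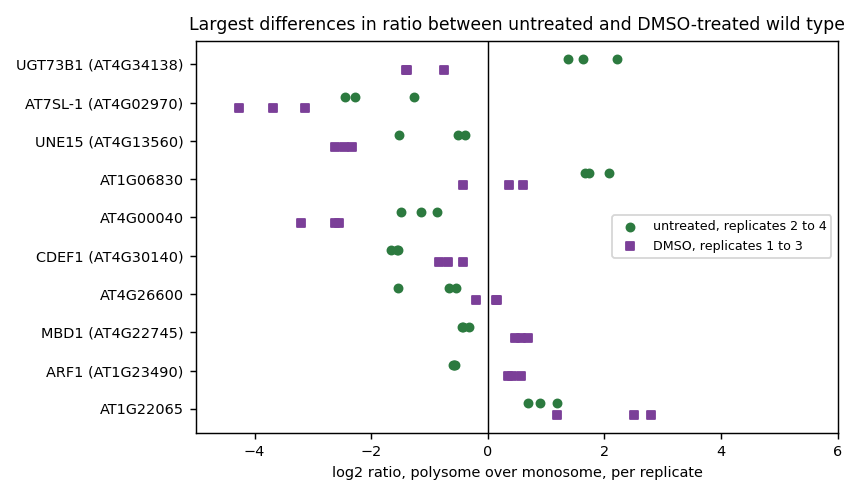
Log2 ratio of the polysome over the monosome value for the 10 genes named in the comparison of untreated (replicates 2, 3 and 4) with DMSO-treated wild type (replicates 1, 2 and 3), with a point per pair. UGT73B1 lies above 0 in each untreated pair and below 0 in each DMSO pair, and ARF1 shows the opposite order.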

How the data were processed

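Monosome and polysome RNA of whole seedlings was sequenced from polyA libraries. The submitters' processing notes name Bowtie 0.12.2 and TAIR10; the counter and the annotation are not given in the sources used here. The deposited signal values had been adjusted by the authors for library size, not linearly at low values, so read counts could not be recovered. The authors' own columns of fold changes and p-values were not used, and neither were the tables per fraction, which repeat the same values. Gene names, lengths and coordinates come from RefSeq (TAIR10.1); organelle codes are printed as given, and a few genes are not reported here.

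Values were divided by the library sum outside 4 rRNA genes, given in parts per 1000000 (ppm) and tested as log2(value + 0.5) in limma 3.58.1 (R 4.3.3) with fraction and replicate as terms, a variance trend and two-sided tests. Genes needed 1 ppm in 3 of 6 libraries. The replicate number was a block because the fractions were paired by it from the start. Same-numbered fractions deviated together only weakly across genes (correlations of 0.13, 0.20 and 0.19 in replicates 2, 3 and 4). The DMSO comparison tested paired ratios.

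Genes were named by rule: the 8 highest and 8 lowest ratios among called nuclear coding genes with a mean of at least 10 ppm in the richer fraction and no overlap, the 8 largest means, the extremes and the highest mean of each list, and the 5 largest differences each way against DMSO. The members and lists were chosen with earlier results of these data known, and the photosystem and RPL41 genes are given in full because of their values. Alternatives covered scaling, pseudocount, filter, variance trend, block and each replicate left out.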

Additional observations from a re-analysis of the deposited data

Results flagged for a closer look

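Genes named in the report were flagged where the ratio of polysome to monosome differed between untreated and DMSO-treated wild type by a test of the difference itself (limma on 3 paired ratios against 3, Benjamini-Hochberg over 18235 genes). Differences are log2 ratio in untreated minus DMSO-treated seedlings, and the median over all genes was 0.12.

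Higher in untreated seedlings were UGT73B1 (2.93, adjusted p = 8.7e-06), AT7SL-1 (1.70, adjusted p = 0.0034), UNE15 (1.66, adjusted p = 0.0023), AT1G06830 (1.65, adjusted p = 0.00044), AT4G00040 (1.62, adjusted p = 0.00054), the tRNA gene AT1G53410 (1.56, adjusted p = 0.036) and the small nucleolar RNA gene AT3G47348 (1.44, adjusted p = 0.0095). Smaller differences of this sign were found for AT3G06355 (0.96), the mitochondrial gene ATMG01190 (0.81), LHCB2.3 (0.78), MYB59 (0.72), AT5G49440 (0.66) and HSC70-3 (0.54).

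Lower in untreated seedlings were AT1G22065 (-1.24, adjusted p = 0.027), ARF1 (-1.02, adjusted p = 0.00021), MBD1 (-0.97, adjusted p = 0.030), AT4G26600 (-0.95, adjusted p = 0.029), CDEF1 (-0.95, adjusted p = 0.047) and RPS15AF (-0.75, adjusted p = 0.0026). Among photosynthesis genes the differences were -0.65 for LHCB3, -0.60 for PSAP, -0.55 for LHCB5, -0.52 for LHCA2 and -0.52 for PSAF, and ACT2 had -0.54.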

How the results depend on the processing

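Calls of polysome-rich and monosome-rich genes numbered 3378 and 5784, 2961 and 5292 with no replicate block, 4816 and 4674 under median-of-ratios scaling, 8322 and 2367 with values as deposited, and 2620 and 7118 with LHCB1 left out of the divisor, a setting chosen after seeing the data. Over the alternatives, the values of named genes kept their direction and side of the threshold in 2024 cases, lost the call in 67, gained it in 17 and turned sign in 25. The replicate block is part of the reported fit; with no replicate block 152 values of named genes kept their call and 11 lost it: the ratios of ERF38, NAC045, LHCB5, PSBO1, SAMDC1, WRKY15 and ATCG00120, and the differences from DMSO of AT1G22065, AT4G26600, MBD1 and CDEF1. An edgeR fit was not run, since reads could not be recovered, and the depth in reads, which limits low genes, is unknown.

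With values as deposited the sign turned for LHCB4.1 (0.038), LHCB4.2 (0.11), LHCB5 (0.22), LHCB6 (0.34), RPL41D (0.056), AT4G34760 (0.48), WRKY15 (0.27), AT2G45180 (0.44), ATCG00120 (0.084), PSBR (0.41) and MBD1 (0.15). Without LHCB1 in the divisor it turned for RPL18AB (-0.0046), AT3G29240 (-0.12), U2.3 (-0.083), LHCA3 (-0.037) and FNR1 (-0.048), and under median-of-ratios scaling for AT4G34760 (0.092), AT2G45180 (0.047) and PSBR (0.017). Without replicate 3 it turned for AT3G29240 (-0.19, and 0.25 without replicate 2), AT4G34760 (0.010, and -0.20 without replicate 2) and AT2G45180 (0.035), without replicate 4 for U2.3 (-0.57), and with replicates 1, 2 and 4 of the other table for AT3G29240 (-0.21) and PSBR (0.046). The cause was not tested.

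List medians relative to all genes held in 176 cases. They moved with pseudocounts of 0.1 and 1 for long non-coding RNA (-0.89 and -0.63), small RNA genes (-1.16 and -0.76) and pseudogenes (-0.33 and -0.26). With replicates left out the ranges were -0.17 to 0.17 for clock genes, 0.15 to 0.19 for tubulins, actins and cellulose synthases, 0.21 to 0.29 for WRKY and 0.23 to 0.30 for NAC factors, -0.32 to -0.27 for pseudogenes, and -0.059 to 0.011 for pentatricopeptide repeat proteins, which turned without replicate 4.

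The counts against DMSO, 635 higher and 195 lower, became 458 and 568 under median-of-ratios scaling and 129 and 15 with no replicate block. Leaving out replicates gave 119 to 1598 and 27 to 284.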
